A study of Mus musculus with 9 samples.

Results

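The genes described here build the contractile apparatus of the heart muscle cell. They are 43 genes of the sarcomere, the Z-disc and contraction, listed by name, but with earlier results of these data known. All 43 were found among the 16873 genes of the files through their gene IDs. RNA was sequenced from mouse heart in 3 groups of 3 libraries: wild-type (WT) mice on saline, WT mice treated with doxorubicin (DOX), and doxorubicin-treated Sting-/- mice, which lack the innate immune adaptor STING. Doxorubicin is an anthracycline used against tumours and toxic to heart muscle, and was given at a low dose to model chronic cardiotoxicity. The dose, the time of sampling, the strain, the age and the part of the heart sampled are not given in the sources used here. No Sting-/- heart without the drug was analysed here, so genotype and response to the drug cannot be told apart in the Sting-/- group.

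The sarcomere is the repeating unit of the myofibril. Myosin thick filaments, held at the M-band, pull on actin thin filaments, anchored at the Z-disc, while titin spans both and the troponins and tropomyosin on the thin filament make the pull depend on calcium. Many of these proteins come in isoforms: the adult mouse ventricle relies on alpha myosin (Myh6) and the cardiac forms of actin and troponin, and the fetal or overloaded heart uses more beta myosin (Myh7) and skeletal actin (Acta1). Z-disc and linkage proteins such as Ankrd1, Csrp3 and the Xin proteins also sense stretch and repair damage.

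Values are FPKM, fragments scaled to transcript length and to the total of the library, so levels of different genes can be set side by side. A difference between groups is given on the scale of log2(FPKM + 1), and a call is a Benjamini-Hochberg adjusted p under 0.05 in limma over 12485 genes whose mean reached 1 FPKM. Of the 43 members 42 were tested. Tnni1, with a mean of 0.988 FPKM, was the one below that limit, and no tested member owed its place to 1 group, since each was above 1 FPKM in every library. Read totals were not used here, but the size of 1 read in the low values gave an approximate depth, in units of 1e6 fragments, of 11.6 to 12 for saline, 13.4 to 14.1 for WT DOX and 8.4 to 8.7 for Sting-/- DOX. Sting1, the deleted gene, was at 5.10, 5.43 and 5.93 FPKM in saline, 17.5, 17.96 and 17.8 in WT DOX and 0.06, 0 and 0 in the libraries labelled Sting-/-.

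The libraries of a group lay close together. The median coefficient of variation of the members was 3.44% in saline, 3.23% in WT DOX and 3.64% in Sting-/- DOX. Whether each library came from its own mouse is not stated, so each p measures the spread between these libraries, which may be technical. The Sting-/- libraries stood apart from both WT groups in their makeup. The 15 cardiomyocyte markers outside the sarcomere summed to 37430.0 to 37930.0 FPKM in saline. Their sum was 23090.0 to 24160.0 FPKM in WT DOX, but 3494 to 3665 in the Sting-/- group. The 8 fibroblast markers summed to 544 to 556, 1175 to 1219 and 7632 to 8106 FPKM in that order of groups. The sums of the 8 endothelial markers were 267 to 279, 256.5 to 265 and 1147 to 1237 FPKM, and those of the 8 smooth muscle and pericyte markers 281 to 327, 242 to 256 and 963 to 1028. Mesothelial markers summed to 4.06 to 6.25, 5.77 to 7.69 and 94.7 to 98.0 FPKM, and cartilage markers to 1.21 to 1.83, 1.91 to 2.25 and 130 to 136. No marker of these lists was at 0 in all libraries of a group, but the smooth muscle marker Lmod1, the mesothelial markers Upk1b and Lrrn4 and most cartilage markers were under 1 FPKM in every WT library. Erythroid markers summed to 2454 to 2548, 1498 to 1638 and 8480.0 to 9700.0 FPKM, and macrophage markers to 319 to 365, 1001 to 1140.0 and 1965 to 2029. Whether the same part of the heart, with the same blood and attached tissue, was taken in each group is not stated. In bulk tissue, fewer cardiomyocytes and less RNA per cardiomyocyte cannot be told apart, and the part of this makeup in the results below was not tested.

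In saline hearts the members held 14.8, 14.8 and 14.7% of all FPKM. The most abundant was Myl2, the ventricular regulatory light chain, at 14846, 13927 and 14117 FPKM, followed by the cardiac actin Actc1 at 11435, 12985 and 11959.7 and the tropomyosin Tpm1 at 11536, 11581 and 11307. The ranges of Actc1 and Tpm1 overlapped, so their order is not settled. At the low end, the slow skeletal troponin I Tnni1 was at 0.09, 0.09 and 0 FPKM, and the PDZ and LIM protein Pdlim3 at 6.15, 8.18 and 6.96. In all, 13 members were at 1000 FPKM or more and 3 under 10 FPKM. By role, the 12 thin filament genes made up 52.4% of the members' summed FPKM and the 6 thick filament genes 33.8%. Z-disc genes made up 9.45%, stress-responsive and linkage genes 2.85%, titin and the M-band 0.84% and kinases and assembly factors 0.675%.

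**Figure D1:**
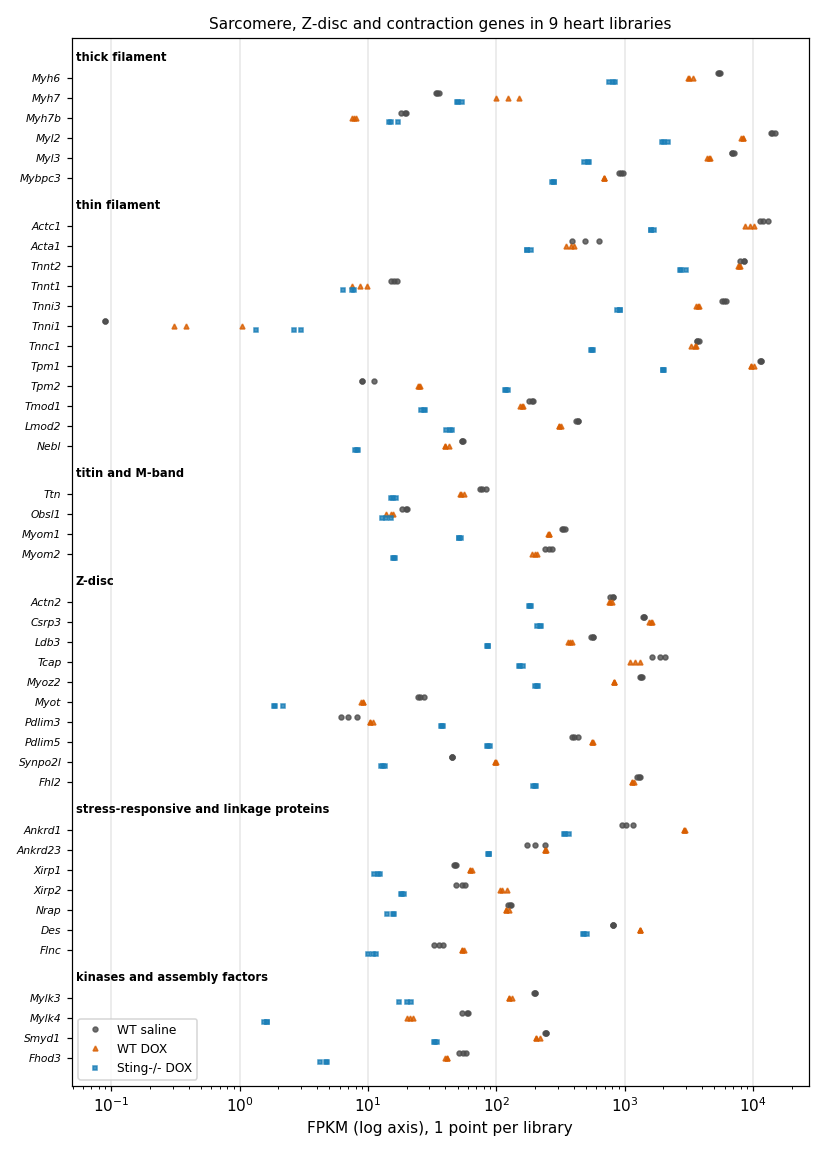
FPKM of each of the 43 members (log axis), with 1 point per library for WT saline (circles), WT DOX (triangles) and Sting-/- DOX (squares), ordered by role; the saline library in which Tnni1 was at 0 is not drawn. Most members step down from saline to WT DOX to Sting-/- DOX, while Ankrd1, Synpo2l, Xirp2 and Des are highest in WT DOX and Tpm2 and Pdlim3 highest in Sting-/- DOX.

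WT hearts with and without doxorubicin were compared first. Most filament genes were lower and most stress-responsive and linkage genes higher: 27 of 42 members fell and 12 rose, against 21.5% lower and 45.3% higher among all genes tested. The members' median difference was -0.36 on the log2 scale, and that of all genes 0.13. The 12 that rose all lay above the median of all genes, and the other 30 below it. Of all the genes called, 67.8% were higher on the deposited scale, but 40.9% after median-ratio scaling and 40.2% after quantile normalization. In those 3 settings the members' median differed from that of all genes by -0.49, -0.52 and -0.15.

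Thick filament genes fell in 5 of 6 cases. Myh6, the fast alpha myosin heavy chain and main motor of the adult mouse ventricle, was at 5463, 5330.1 and 5509.9 FPKM in saline and 3435, 3089 and 3158 in WT DOX. All WT DOX values lay below all saline values, a difference of -0.75 (SE 0.048, limma adjusted p = 5.15e-08). Myh7, the slower beta form, was the exception, at 34.4, 33.7 and 35.6 FPKM in saline and 99.01, 149 and 123 in WT DOX. It rose by 1.79 (SE 0.109, limma adjusted p = 3.58e-08), the highest of the tested members, with its WT DOX libraries spread more widely than those of most members. Myh7b, an ancestral myosin heavy chain made at low levels in heart, went the other way from Myh7, from 19.7, 18.1 and 19.6 to 7.74, 7.46 and 8.03 FPKM (-1.20). The light chains Myl2 (-0.79) and Myl3 (-0.62) and the myosin-binding protein Mybpc3 (-0.44) also fell.

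Thin filament genes fell by smaller amounts, in 9 of 11 tested cases. Tnni3, the cardiac troponin I that holds actin and myosin apart at rest, fell from 6186, 5760.1 and 5891 to 3740.2, 3573 and 3805 FPKM (-0.68). Actc1 differed by -0.36, Tpm1 by -0.23 and Tnnc1, the calcium-binding troponin C, by -0.10, all called lower, but with quantile normalization the differences were 0.13, 0.62 and 0.19 and all passed as higher. The fall of Tnnc1 (limma adjusted p = 0.0369) was also lost without saline library 2 or 3 or WT DOX library 2 (-0.06 to -0.10). Tnnt2, the cardiac troponin T, had a difference of -0.10 that did not pass (limma adjusted p = 0.0768), and it passed with median-ratio scaling at -0.35. Nebl, Lmod2 and Tmod1, which set or cap the length of thin filaments, fell by 0.39, 0.46 and 0.25.

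Tpm2, the beta tropomyosin abundant in smooth and slow skeletal muscle, was the thin filament gene that rose, from 9.03, 11.1 and 8.93 to 24.9, 24.4 and 25.2 FPKM (1.28, SE 0.066, limma adjusted p = 7.71e-09). In the same libraries 3 of 8 smooth muscle and pericyte markers were higher and 2 lower, against 45.3% and 21.5% of all genes tested. Acta2 was at 106 FPKM in saline and 103 in WT DOX. Tagln rose from 13.8 to 30.9 FPKM (1.11) and Cnn1, named after its values were seen, by 1.37 to 4.79 FPKM. Rgs5 fell from 160 to 85.7 FPKM (-0.90) and Myh11, also named after its values were seen, from 4.91 to 3.00 (-0.56). The part of these markers in the rise of Tpm2 was not tested. Acta1, the skeletal actin that the fetal heart also makes, was at 386, 626 and 488 FPKM in saline and 404, 351 and 384 in WT DOX. The ranges overlapped. Its difference of -0.37 (limma adjusted p = 0.0235) no longer passed without saline library 2 (-0.19) or WT DOX library 2 (-0.31). Tnnt1, the slow skeletal troponin T, fell from 15.9, 16.8 and 15.2 to 7.52, 8.66 and 9.76 FPKM (-0.82).

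Titin and the M-band fell together, in 4 of 4 cases and within a narrow band. Ttn, the giant spring of the sarcomere, was at 74.5, 82.6 and 77.8 FPKM in saline and 52.5, 55.8 and 53.4 in WT DOX (-0.53, SE 0.051). Obsl1, Myom1 and Myom2, which link titin and myosin at the M-band, fell by 0.36, 0.38 and 0.36. Among the kinases and assembly factors all 4 fell as well. Mylk4, a myosin light chain kinase family member, fell most, from 58.9, 53.8 and 59.7 to 22.6, 20.2 and 21.1 FPKM (-1.39, SE 0.058, limma adjusted p = 1.11e-09). Mylk3, the cardiac kinase that phosphorylates the regulatory light chain, fell by 0.63, the formin Fhod3 by 0.40 and the methyltransferase Smyd1, needed for myofibril assembly, by 0.20.

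The Z-disc was split, with 4 of 10 genes higher and 5 lower. Synpo2l, an actin-bundling Z-disc protein also called CHAP, rose from 45.4, 45.1 and 45.4 to 97.8, 98.8 and 97.8 FPKM (1.10, SE 0.038, limma adjusted p = 2.71e-10). The libraries of each group were close together and the groups far apart. Pdlim5 rose by 0.45, Pdlim3 by 0.52 and Csrp3, the stretch-sensing muscle LIM protein, by 0.18, which was -0.07 and did not pass with median-ratio scaling. Myot, which crosslinks actin at the Z-disc, fell most, from 25.6, 27.5 and 24.7 to 9.11, 8.86 and 9.09 FPKM (-1.43, SE 0.062). The calcineurin-binding Myoz2 fell by 0.70, the titin cap Tcap by 0.62, Ldb3, also called Cypher, by 0.57 and Fhl2 by 0.16. Actn2, the alpha-actinin that forms the Z-disc lattice, was at 762, 812 and 806 FPKM in saline and 798, 750.1 and 764 in WT DOX, overlapping ranges with a difference of -0.04 (limma adjusted p = 0.345). Actn2 passed as lower with median-ratio scaling (-0.29) and quantile normalization (-0.23).

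Stress-responsive and linkage genes rose in 6 of 7 cases. Ankrd1, the ankyrin repeat protein that shuttles between titin and the nucleus, rose from 960.5, 1170.0 and 1018 to 2911, 2921 and 2968 FPKM (1.49, SE 0.061, limma adjusted p = 1.06e-09). The WT DOX libraries agreed closely, while saline library 2 lay above the other saline libraries. Xirp2, a Xin actin-binding protein of the intercalated disc, rose from 48.8, 56.5 and 54.4 to 107, 120.3 and 111 FPKM (1.07), and Xirp1 by 0.39. Desmin (Des), the intermediate filament that ties Z-discs together, rose from 807, 809 and 812 to 1305, 1316 and 1315 FPKM (0.70), and Flnc, an actin crosslinker recruited to damaged Z-discs, by 0.60. Ankrd23 rose by 0.25, but its ranges overlapped, and it was at -0.006 and did not pass with median-ratio scaling. That call was also lost with quantile normalization (0.13) and without saline library 1 (0.14), saline library 3 (0.24) or WT DOX library 1 (0.23). Nrap, which joins thin filaments to the cell membrane, did not pass (-0.06, limma adjusted p = 0.3), and passed as lower with median-ratio scaling (-0.31) and quantile normalization (-0.21).

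**Figure D2:**
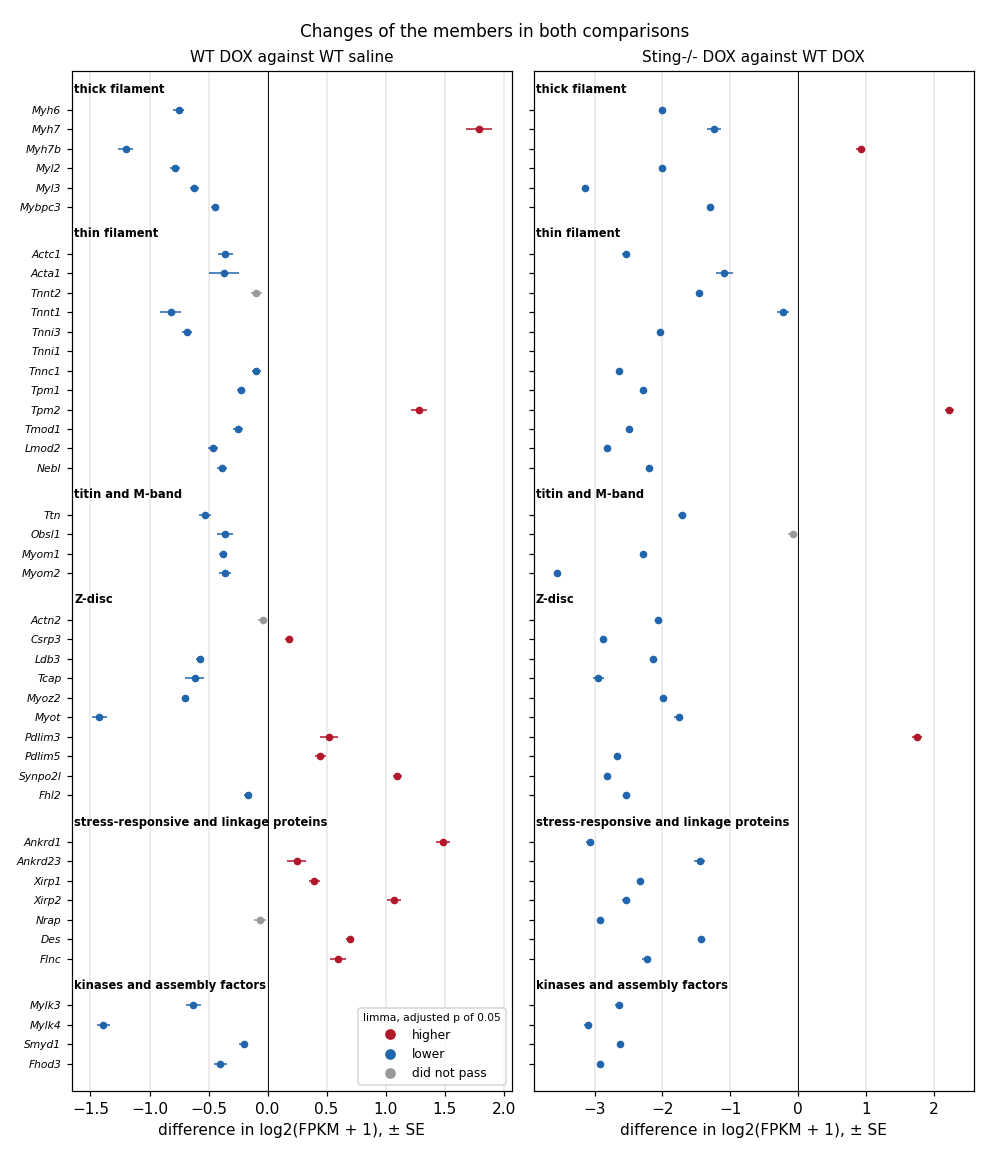
Difference in log2(FPKM + 1) for the 42 tested members, ± SE, in WT DOX against WT saline (left) and Sting-/- DOX against WT DOX (right), with their own axis ranges, coloured by the limma call. On the left the linkage genes, apart from the uncalled Nrap, and part of the Z-disc lie right of 0. The filaments, apart from Myh7 and Tpm2, lie left of it. Under another scaling Actc1, Tpm1 and Tnnc1 turn higher, and Csrp3 and Ankrd23 lose their rise. On the right all but Myh7b, Tpm2, Pdlim3 and the uncalled Obsl1 are called lower.

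The promoters of some of these genes are shown because the members moved in 2 directions in WT DOX. RefSeq promoters (GRCm38.p6, not the build of the files) were matched by symbol for 38 of 43 members, 53 starts in all, and the 250 bases before each start were read. The searches, on both strands, were for the M-CAT element CATTCC, bound by TEAD factors, AGATAA, bound by GATA factors, and TATAAA. Also searched were the CArG box of SRF, CCWWWWWWGG, and the site of MEF2, YTAWWWWTAR. In these, W is A or T, Y is C or T and R is A or G. M-CAT was in 26.4% of the 53 member windows and 12.6% of all 32851 windows of that length, the CArG box in 17.0% and 1.47%, and the MEF2 site in 15.1% and 2.92%. AGATAA was in 18.9% and 9.99%, and TATAAA in 11.3% and 12.4%. Windows of 1 gene can overlap, and a match describes the letters, not binding. The myosin pair and 4 genes with large changes are given 5′ to 3′, each ending at the start, with matches in capitals.
Myh6, chr14:54966608-54966857, minus strand: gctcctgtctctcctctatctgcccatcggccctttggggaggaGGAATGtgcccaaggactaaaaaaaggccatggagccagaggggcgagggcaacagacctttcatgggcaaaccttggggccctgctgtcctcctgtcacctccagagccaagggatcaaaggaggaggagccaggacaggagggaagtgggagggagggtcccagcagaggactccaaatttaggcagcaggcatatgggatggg
Myh7, chr14:54994627-54994876, minus strand: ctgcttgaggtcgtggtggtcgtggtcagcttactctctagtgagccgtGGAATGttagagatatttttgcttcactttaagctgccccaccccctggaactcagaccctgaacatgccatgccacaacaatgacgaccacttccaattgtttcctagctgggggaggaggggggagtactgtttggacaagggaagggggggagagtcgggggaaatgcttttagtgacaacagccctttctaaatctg
Ankrd1, chr19:36119845-36120094, minus strand: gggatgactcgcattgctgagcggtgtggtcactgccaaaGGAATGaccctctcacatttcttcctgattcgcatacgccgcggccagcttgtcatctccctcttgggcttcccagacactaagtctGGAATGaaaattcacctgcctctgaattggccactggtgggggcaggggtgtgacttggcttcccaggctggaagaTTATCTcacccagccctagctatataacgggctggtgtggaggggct
Synpo2l, chr14:20664575-20664824, minus strand: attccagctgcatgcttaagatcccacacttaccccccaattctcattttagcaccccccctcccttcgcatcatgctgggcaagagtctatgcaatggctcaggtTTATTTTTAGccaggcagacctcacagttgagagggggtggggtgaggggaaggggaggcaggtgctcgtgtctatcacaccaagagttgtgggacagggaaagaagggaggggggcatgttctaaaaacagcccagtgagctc
Xirp2, chr2:67445752-67446001, plus strand: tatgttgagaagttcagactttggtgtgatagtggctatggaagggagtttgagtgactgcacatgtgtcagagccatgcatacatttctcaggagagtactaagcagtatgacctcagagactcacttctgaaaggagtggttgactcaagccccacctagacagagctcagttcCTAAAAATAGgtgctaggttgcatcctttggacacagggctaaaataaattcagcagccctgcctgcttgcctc
Mylk4, chr13:32783965-32784214, minus strand: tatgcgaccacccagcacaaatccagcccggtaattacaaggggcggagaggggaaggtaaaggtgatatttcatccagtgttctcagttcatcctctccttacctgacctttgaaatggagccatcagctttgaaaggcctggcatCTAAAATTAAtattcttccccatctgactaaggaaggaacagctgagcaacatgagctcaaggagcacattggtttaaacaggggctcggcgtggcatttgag
Myh6 and Myh7, which moved in opposite directions, each carried 1 M-CAT match in the windows shown, here as its reverse complement, while the window of a second Myh7 start (chr14:54994550-54994799) held none of the motifs. Ankrd1 carried 2 of them and a reversed GATA match. Synpo2l and Xirp2, which rose, and Mylk4, which fell, each held a MEF2 match.

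The second comparison asked how Sting-/- and WT hearts differed when both had received doxorubicin. Nearly the whole apparatus was lower in Sting-/- DOX: 38 of 42 members were lower and 3 higher, against 29.7% lower and 54.1% higher among all genes tested. The members' median difference was -2.25, where that of all genes was 0.25, and 37 of the 38 were lower by at least 1 on the log2 scale. Of all genes called, 64.6% were higher on the deposited scale, but 46.3% after median-ratio scaling and 51.3% after quantile normalization, with the members at 3 higher and 39 lower under both. This comparison shares the WT DOX libraries with the first. Beside it, all 15 cardiomyocyte markers outside the sarcomere were lower (median -2.44), and 7 of 8 fibroblast, 8 of 8 endothelial and 8 of 8 smooth muscle and pericyte markers were higher (medians 2.28, 2.17 and 1.84). Lmod1, counted among the last, averaged 0.38 FPKM in saline and 0.52 in WT DOX and passed the filter only through Sting-/- DOX. The members' share of all FPKM was 11.7, 11.1 and 11.3% in WT DOX and 2.61, 2.66 and 2.70% in Sting-/- DOX (exact permutation test, two-sided, p = 0.1, the smallest 3 against 3 allow).

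In the thick filament, the essential light chain Myl3 had the lowest difference, at 4616, 4348 and 4539.6 FPKM in WT DOX and 485, 531 and 517 in Sting-/- DOX (-3.14, SE 0.039, limma adjusted p = 3.35e-14). Myl2 differed by -2.01 and Myh6 stood at 757, 818 and 845 FPKM, below every WT DOX library. Myh7 was at 49.5, 53.9 and 50.05 FPKM, below every WT DOX library (-1.24). Myh7b was the member of this group that was higher, at 14.5, 15.1 and 17.2 FPKM (0.92, SE 0.065, limma adjusted p = 4.83e-08), still below its saline libraries.

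In the thin filament, 10 of 11 tested genes were lower. Lmod2, which elongates thin filaments, went lowest, from 306, 318 and 306 to 43.9, 44.8 and 40.7 FPKM (-2.82). Troponin subunits, which work as 1 complex, differed unequally: Tnnc1 by -2.64, Tnni3 by -2.03 and Tnnt2 by -1.46, the last at 2694, 2768 and 3020.1 FPKM. Tnnt2 was thereby the most abundant member in the Sting-/- libraries, with 19.7% ± 0.91 of the members' summed FPKM (SD, n = 3) against 12.1% in WT DOX. Actc1 was at 1682, 1605 and 1600.0 FPKM (-2.54) and Acta1 at 174, 185 and 174 (-1.09). Tnnt1 differed by -0.22 (limma adjusted p = 0.0333) with overlapping ranges, a call lost with TPM scaling (-0.17) and without WT DOX library 2 or 3 or Sting-/- library 2 (-0.14 to -0.22).

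Tpm2 went against the rest of the thin filament, at 122, 118 and 119 FPKM in Sting-/- DOX (2.22, SE 0.066, limma adjusted p = 1.67e-11). Pdlim3, its Z-disc counterpart in direction, was at 10.4, 10.3 and 10.9 FPKM in WT DOX and 38.5, 37.7 and 37.1 in Sting-/- DOX (1.75, SE 0.077). For both genes the groups did not overlap and stood in the order saline, WT DOX, Sting-/- DOX, with Sting-/- DOX far above the others. The smooth muscle markers Acta2 and Tagln were at 103 and 30.9 FPKM in WT DOX and 401 and 342 in Sting-/- DOX, and their part in these rises was not tested. Tnni1, which was not tested, was at 1.05, 0.31 and 0.38 FPKM in WT DOX and 2.63, 1.35 and 2.99 in Sting-/- DOX. Of the 11 skeletal muscle markers 6 were tested. All 6 were higher in Sting-/- DOX than in WT DOX (median 1.49), against 54.1% of all genes tested. Mylpf, Tnnc2 and Pvalb averaged 0.867, 0.18 and 0.13 FPKM in saline and 0.967, 0.317 and 0.357 in WT DOX. They passed the filter only through Sting-/- DOX, so their direction was fixed in advance and the count of 6 has no weight as a result. The list summed to 99.8 to 111 FPKM in Sting-/- DOX, against 45.4 to 52.5 in WT DOX. Most of the sum was the light chain Myl1, at 42.8 FPKM in WT DOX against 76.7 in Sting-/- DOX. The fast troponin T Tnnt3 was at 1.81 and 7.86 FPKM, and the light chain Mylpf at 0.967 and 8.10, in the same order, whereas the fast myosins Myh1, Myh2 and Myh4 were under 1 FPKM in every library. The part of these markers in the values of Tpm2, Tnni1, Tnnt1 and Acta1 was not tested.

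Myom2 had the lowest difference of the tested members on the log2(FPKM + 1) scale, at 190.0, 207 and 199 FPKM in WT DOX and 16.3, 16.04 and 15.7 in Sting-/- DOX (-3.55, SE 0.051, limma adjusted p = 6.01e-14). Its M-band partner Obsl1 did not pass, at 15.7, 13.8 and 15.1 FPKM in WT DOX and 13.9, 15.2 and 12.9 in Sting-/- DOX (-0.08, limma adjusted p = 0.264). It passed as lower with median-ratio scaling (-0.40) and quantile normalization (-0.32). Ttn differed by -1.71. In the Z-disc, Tcap went from 1306, 1108 and 1202 to 153, 151 and 162 FPKM (-2.94), and Csrp3 differed by -2.88, Synpo2l by -2.82 and Actn2 by -2.07. Mylk4 was near the bottom of the measured range in Sting-/- DOX, at 1.55, 1.62 and 1.63 FPKM (-3.10). As a ratio of mean FPKM it was 13.3-fold lower, more than the 12.4-fold of Myom2. The formin Fhod3 differed by -2.92.

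The stress-responsive and linkage genes, 6 of which had risen in WT DOX, were all 7 called lower in Sting-/- DOX. Ankrd1 was at 368, 337 and 340.2 FPKM (-3.07, SE 0.061, limma adjusted p = 5.97e-13), below its saline libraries too. Des, which smooth muscle also makes, was the least reduced of the group, at 509, 476 and 478 FPKM (-1.43). Xirp2 differed by -2.54, Flnc by -2.23 and Nrap by -2.91.

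Set against saline, Sting-/- DOX had 39 of 42 members lower and 3 higher, where 25.9% of all genes were lower and 63.0% higher. The members' median difference was -2.62, and that of all genes 0.49. Of the 15 cardiomyocyte markers outside the sarcomere, 14 were lower (median -3.12). Of all genes called, 70.9% were higher on the deposited scale, but 48.5% after median-ratio scaling and 51.6% after quantile normalization. The 3 higher members were Tpm2 (3.50), Pdlim3 (2.27) and Myh7 (0.55), and Myh7 was at -0.03 and did not pass with median-ratio scaling. Mylk4 (-4.49), Myom2 (-3.91) and Myl3 (-3.76) had the largest falls. Each difference against saline here is the sum of the other 2 differences, so it is no separate observation. Across the 3 groups, 25 members were lower in WT DOX than in saline and lower again in Sting-/- DOX than in WT DOX. Another 9, Ankrd1, Ankrd23, Csrp3, Des, Flnc, Pdlim5, Synpo2l, Xirp1 and Xirp2, were higher in WT DOX than in saline and lower in Sting-/- DOX than in either. Tpm2 and Pdlim3 were the members higher in WT DOX than in saline and higher again in Sting-/- DOX than in WT DOX. The shares of all genes with these patterns were not counted.

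Isoform shares compare 2 genes within a library, so a common scaling factor for the library cancels. For each of 7 pairs the share is that of the form of the fetal heart, atrium or skeletal muscle in the summed FPKM of both genes. Myh7 made up 0.626, 0.629 and 0.642% of Myh7 plus Myh6 in saline, 2.80, 4.61 and 3.74% in WT DOX and 6.14, 6.18 and 5.59% in Sting-/- DOX. The groups did not overlap, so the beta share was highest in the group where Myh7 itself was lower than in WT DOX. Of the 50-base words of the GENCODE Myh7 transcripts, 21.2% also occur in Myh6, so the division of fragments between this pair is uncertain, and none was shared in the other 6 pairs.

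For skeletal actin, the shares in saline and WT DOX overlapped on the deposited scale. Acta1 made up 3.26, 4.60 and 3.92% of Acta1 plus Actc1 in saline, 3.79, 3.89 and 3.89% in WT DOX and 9.37, 10.4 and 9.83% in Sting-/- DOX. The test of saline against WT DOX gave p = 0.7 (exact permutation test, two-sided), and Sting-/- DOX lay above both. Without saline library 2 the WT DOX share was 0.262 points higher, while the difference was -0.073 points with all libraries and -2.43 points after quantile normalization. The 250 bases before each actin start are shown, since both genes answer to SRF in muscle and each window held a CArG box, with an M-CAT and a TATA match in Acta1 as well.
Acta1, chr8:123894776-123895025, minus strand: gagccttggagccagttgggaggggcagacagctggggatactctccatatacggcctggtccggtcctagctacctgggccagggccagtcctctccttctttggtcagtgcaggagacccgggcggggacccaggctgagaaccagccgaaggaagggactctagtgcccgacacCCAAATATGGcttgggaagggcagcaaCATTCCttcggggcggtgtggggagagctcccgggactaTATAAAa
Actc1, chr2:114052876-114053125, minus strand: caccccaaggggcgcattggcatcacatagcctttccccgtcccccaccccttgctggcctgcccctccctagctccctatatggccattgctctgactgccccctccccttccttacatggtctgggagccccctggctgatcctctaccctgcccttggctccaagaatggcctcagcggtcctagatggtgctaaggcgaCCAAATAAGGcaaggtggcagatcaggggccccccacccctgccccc

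The remaining pairs changed from very low shares. Tpm2 made up 0.0841% ± 0.00968 of Tpm2 plus Tpm1 in saline, 0.253% ± 0.00984 in WT DOX and 5.65% ± 0.142 in Sting-/- DOX (SD, n = 3 each). The difference between WT DOX and saline was 0.169 points, and 0.0595 after quantile normalization. Tnni1 made up 0.001006% ± 0.000873, 0.0156% ± 0.0108 and 0.257% ± 0.0964 of the troponin I pair, so the cardiac form Tnni3 was nearly all of it in every group. Tnnt1 fell from 0.192% ± 0.0169 of the troponin T pair in saline to 0.111% ± 0.0164 in WT DOX and was at 0.256% ± 0.0238 in Sting-/- DOX. Its higher share in Sting-/- DOX than in saline turned into a lower one, by 0.108 points, after quantile normalization. The atrial light chains, which the fetal ventricle also makes, had the same order of groups as Myh7. Myl4 made up 0.0252%, 0.437% and 5.35% of Myl4 plus Myl3 on average, and Myl7 0.00341%, 0.168% and 1.57% of Myl7 plus Myl2. For 6 of the 7 pairs no group overlapped another (exact permutation test, two-sided, p = 0.1 for each of the 3 comparisons, the smallest possible, or 0.104 after Benjamini-Hochberg adjustment over the 24 comparisons of shares, the members' share of FPKM included). Of the atrial markers, a list that holds Myl4 and Myl7 themselves, 5 of 6 tested were higher in WT DOX than in saline and 5 of 6 higher in Sting-/- DOX than in WT DOX. Among all genes tested, 45.3% and 54.1% were higher. Myl7, Sln and Dkk3 averaged 0.487, 0.123 and 0.64 FPKM in saline. They passed the filter only through the doxorubicin groups, where they were high, so the count against saline was partly fixed in advance. Their sum, most of it Nppa, was 188 to 221 FPKM in saline, 2667 to 3003 after doxorubicin in WT and 3749 to 3871 in Sting-/-, and their part in the isoform shares was not tested.

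**Figure D3:**
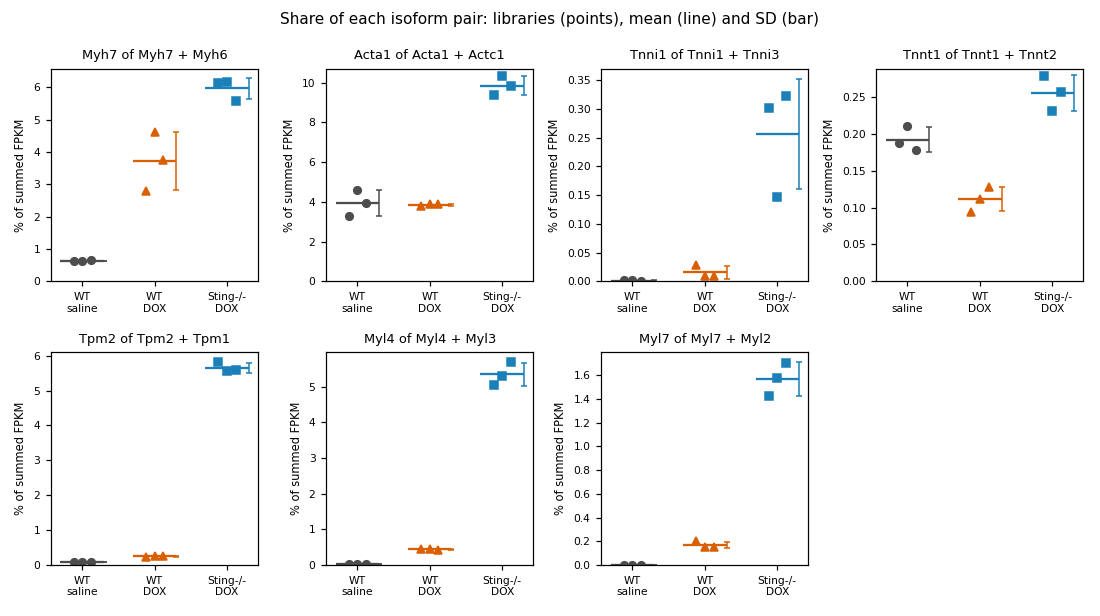
Share of the first gene in the summed FPKM of each isoform pair, in percent, for 3 libraries a group (points) with the mean (line) and SD (bar); each panel has its own axis from 0. The Myh7 share climbs from 0.632% to 3.72% to 5.97% on average, while the Acta1 share overlaps between saline and WT DOX and is higher in Sting-/- DOX.

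The members were also set against other cardiomyocyte genes. Each member's FPKM was divided by the geometric mean of the 15 cardiomyocyte markers outside the sarcomere in its library, which was 402 to 406 FPKM in saline, 276 to 278 after doxorubicin in WT and 50.9 to 53.4 in Sting-/-. These values are descriptions without a test. On this footing the members' median log2 ratio was 0.18 for WT DOX over saline and 0.09 for Sting-/- DOX over WT DOX, where the median of all genes was 0.69 and 2.69. For Sting-/- DOX over saline the medians were 0.26 for the members and 3.53 for all genes. In Sting-/- DOX against WT DOX, 21 of 42 members were higher and 17 lower with ranges apart, against 96.5% and 1.75% of all genes. In WT DOX against saline, 27 were higher and 10 lower, against 85.1% and 3.68%. By construction a value of 0 is a change equal to that of the marker mean, and members lay on both sides of it.

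Relative to the markers, the members ran from -1.33 (Mylk4) to 4.67 (Tpm2) in Sting-/- DOX over WT DOX. Mylk4, Myom2 (-1.23), Fhod3 (-0.76) and Myl3 (-0.73) were reduced beyond the markers. Above them lay Pdlim3 (4.25), Myh7b (3.42), Obsl1 (2.32), Tnnt1 (2.15), Acta1 (1.31), Myh7 (1.13), Mybpc3 (1.10), Des (0.98), Tnnt2 (0.95) and Ankrd23 (0.94). Of these, all but Pdlim3 and Myh7b lay below the median of all genes (2.69), and the part of other cell types in their values was not tested. Myh6 (0.41), Myl2 (0.40) and Tnni3 (0.37) stood close to each other. In WT DOX over saline, Myh7 (2.38) stood highest of the tested members, followed by Ankrd1 at 2.02, Tpm2 at 1.90, Synpo2l at 1.66, Xirp2 at 1.62 and Des at 1.24. Myot (-0.98), Mylk4 (-0.89) and Myh7b (-0.76) stood lowest.

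**Figure D4:**
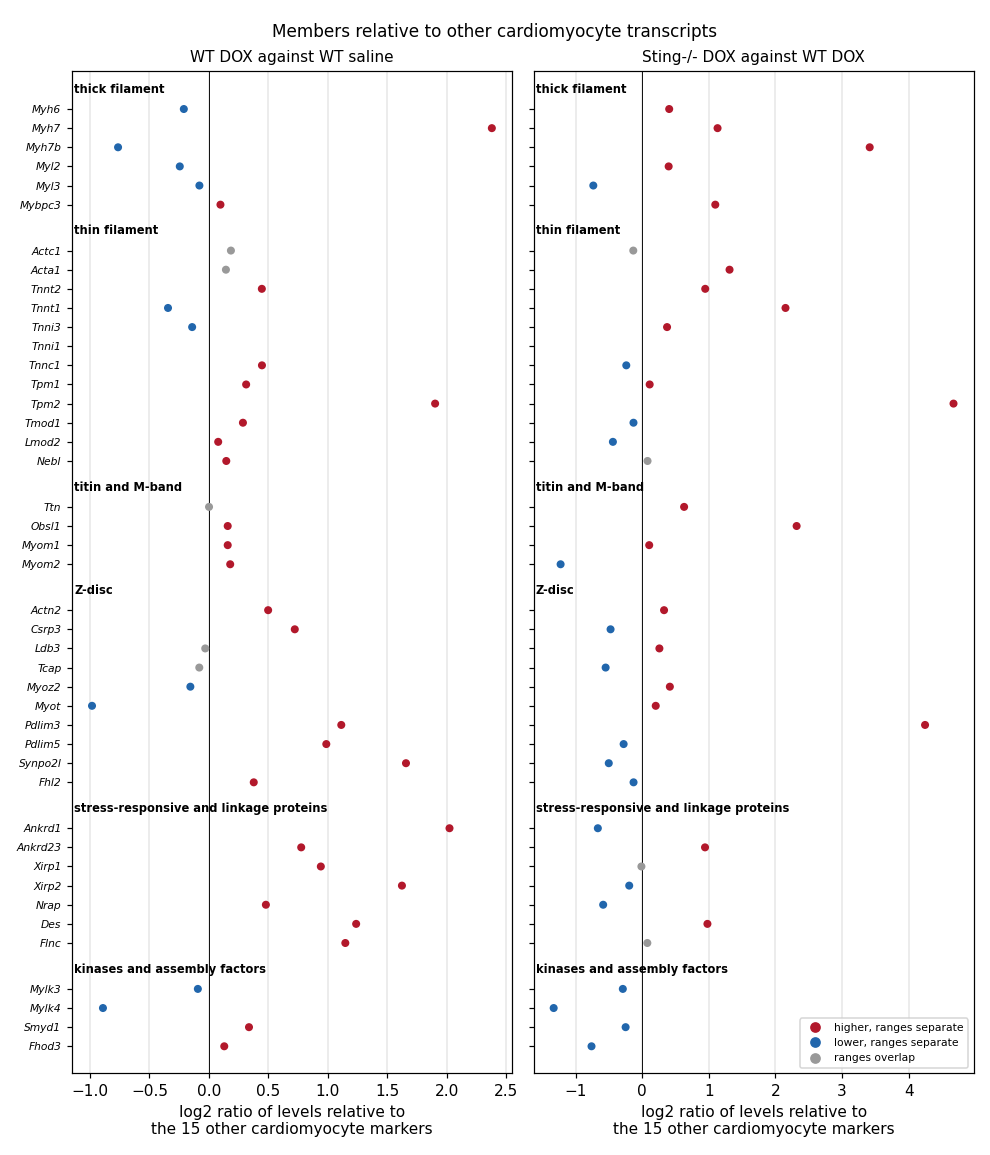
Log2 ratio of group means of each tested member after division by the geometric mean of the 15 other cardiomyocyte markers, for WT DOX over WT saline (left) and Sting-/- DOX over WT DOX (right), coloured by whether the 3 libraries of each group are apart. On the right the members lie on both sides of 0, from Mylk4 to Tpm2, and on the left most lie right of it.

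The makeup of the contractile transcripts shifted with these changes. Stress-responsive and linkage genes made up 2.85% of the members' summed FPKM in saline, 7.52% in WT DOX and 6.84% in Sting-/- DOX, most of it Ankrd1 and Des. The thick filament share was 33.8%, 26.2% and 25.9%, and the thin filament share 52.4%, 54.6% and 57.9%. Tnnt2 went from 10.2% to 12.1% to 19.7% of the members' sum, and Myl3 from 8.47% to 7.0% to 3.56%.

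A further list of 42 sarcomere and contraction genes outside the members had 38 tested. Of these, 16 were higher and 16 lower after doxorubicin in WT, where 45.3% of all genes tested were higher and 21.5% lower. Sting-/- DOX had 11 above and 26 below WT DOX, where 54.1% of all genes were higher and 29.7% lower. The medians of the list were 0.0 and -1.20. Cryab, a small heat shock protein that protects desmin and titin, was at 2422, 2691 and 2575 FPKM in saline, 4166, 3762 and 4095 in WT DOX and 694, 698 and 701 in Sting-/- DOX, and so was highest in WT DOX like Ankrd1 and Des. Hspb7, a small heat shock protein of heart muscle, rose by 0.35 in WT DOX and differed by -3.30 in Sting-/- DOX against WT DOX, and Smpx, a small muscle protein, by 0.68 and -3.02. Tpm4, a tropomyosin of the cytoskeleton in non-muscle cells, was at 72.96, 89.5 and 82.9 FPKM in saline. It rose to 205, 221 and 208 FPKM in WT DOX and was at 412, 387 and 393 in Sting-/- DOX, the same order of groups as Tpm2.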

How the data were processed

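The authors deposited FPKM values to 2 decimals by gene ID, 1 table for each library, per the file headers. Per the submitters' processing notes, HISAT2 2.0.4, Bowtie2 2.2.5, RSEM 1.2.12 and GRCm39 were used, with no role or order given. Groups and replicate numbers come from the titles. IDs were matched to RefSeq symbols (16825 of 16873). FPKM is relative to each library's total, so scaling was varied. Depth was approximated from low values of 1350 single-transcript genes (42.8 to 55.6% of values within 0.1 of a whole read), too inexact to recover counts.

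Members and lists were chosen with earlier results of these data known. Limma 3.58.1 in R 4.3.3 was fitted to log2(FPKM + 1) of 12485 genes averaging 1 FPKM or more, all 9 libraries in 1 fit (6 residual degrees of freedom, trended prior), two-sided, adjusted over all genes, and tested on simulated data. Genes named were the members (isoform pairs and, per role group, the highest and lowest change in full) and up to 4 abundant genes a list. Shares used exact permutation tests (Python 3.11.15, scipy 1.17.1). The level relative to cardiomyocyte markers was added after the data were seen. Alternatives were the pseudocount, filter, scaling, samples in the fit, variance trend, a replicate block and leaving out each library.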

Additional observations from a re-analysis of the deposited data

How the results depend on the processing

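Member counts stayed within 1.5 times of those given under all 18 alternatives, at 10 to 14 higher and 25 to 30 lower in WT DOX against saline, 3 to 4 higher and 37 to 39 lower in Sting-/- DOX against WT DOX, and 2 to 4 higher and 39 lower in Sting-/- DOX against saline. A change of filter, variance trend, replicate block or libraries outside the comparison could move a call but, by construction, not the log2 difference. Of the 2268 member differences recomputed, these settings included, 2232 kept direction and call, 19 lost the call, 11 gained it and 6 reversed. The 6, all in WT DOX against saline but for Myh7, were Csrp3 (-0.072), Ankrd23 (-0.006) and Myh7 in Sting-/- DOX against saline (-0.032) with median-ratio scaling, and Actc1 (0.13), Tnnc1 (0.19) and Tpm1 (0.62) with quantile normalization. Tpm1 and Actc1 are among the most abundant genes; the cause was not tested.

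Counts over all genes moved with scaling. With median-ratio scaling 3544 were higher and 5121 lower in WT DOX against saline, and 5192 and 5510 in Sting-/- DOX against saline. With quantile normalization 3523 were higher and 5233 lower in the first, and 5188 lower in the second.

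Quantile normalization alters ratios of abundant genes, and so the isoform shares. In WT DOX against saline the difference in points was -2.43 for Acta1, -0.153 for Tnnt1, 0.0595 for Tpm2 and 0.388 for Myl4. In Sting-/- DOX against WT DOX it was 0.0445 for Tnnt1, 4.91 for Tpm2, 4.15 for Myl4 and 1.07 for Myl7. In Sting-/- DOX against saline it was 4.81 for Myh7, 3.76 for Acta1, -0.108 for Tnnt1, 4.97 for Tpm2, 4.53 for Myl4 and 1.25 for Myl7. The Acta1 difference in WT DOX against saline ran from -0.405 to 0.262 points over the fits without 1 library. Without the 10 most abundant other genes in the sum, the members' share of FPKM differed by -3.96, -9.42 and -13.4 points in the 3 comparisons.

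With the replicate number as a block, members were 12 higher and 26 lower, 3 and 38, and 3 and 39 in the 3 comparisons. The block changed 1 call, that of Tnnc1 in WT DOX against saline (-0.10, limma adjusted p = 0.0619). The deviations of same-numbered libraries had r from -0.032 to 0.104 over 9 pairs, with 1 pair, saline 2 and WT DOX 2, above 0.1. No pairing is stated, so the numbers were not taken as pairs. Depth was lowest in Sting-/- DOX, which limits Mylk4, Myot and Tnni1 most.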

Other observations

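Saline library 2 was the highest of its group for 21 of the 43 members and the lowest for 18. Among the first were Acta1 (386, 626 and 488 FPKM), Actc1, Ankrd1, Ankrd23, Flnc and Xirp2, and among the second Tcap (2049, 1619 and 1898 FPKM), Myl2, Myom2, Tnnt2 and Tnni3. In WT DOX, library 1 was highest for 25 members and library 2 lowest for 28. Library 1 was lowest for Myh7 (99.01, 149 and 123 FPKM) and highest for Myh6 (3435, 3089 and 3158 FPKM) and Tnni1 (1.05, 0.31 and 0.38 FPKM).

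Of the further sarcomere list, 3 genes are named here after their values were seen. Ankrd2, a paralog of Ankrd1 and Ankrd23 known from skeletal muscle, was at 0.5, 0.49 and 0.42 FPKM in saline, 10.6, 11.9 and 12.4 in WT DOX and 0.33, 0.11 and 0.35 in Sting-/- DOX, with the WT DOX libraries far above both other groups. Its rise in WT DOX was 3.10 and that of Fhl1 2.12, both beyond the 1.79 of Myh7. Fhl1, a LIM protein related to Fhl2, was at 59.3, 58.96 and 57.3 FPKM in saline, 266, 248 and 260.0 in WT DOX and 85.4, 83.8 and 82.1 in Sting-/- DOX, whereas Fhl2 fell by 0.16 in WT DOX. Vcl, which links actin to adhesions, was at 31.9, 31.1 and 32.3 FPKM in saline, 34.8, 37.1 and 35.3 in WT DOX and 37.5, 36.5 and 34.02 in Sting-/- DOX, with no call between Sting-/- DOX and WT DOX (0.01, limma adjusted p = 0.858).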
